A study of Arabidopsis thaliana x Arabidopsis arenosa and Arabidopsis suecica with 6 samples.

Results

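WRKY transcription factors are a plant family of DNA-binding proteins, and 44 of their genes in Arabidopsis were followed here in leaf mRNA of allotetraploid plants. The genes were chosen by a list of gene codes of the family, and 42 of the 44 are among the 17885 genes in the deposited tables. The list does not hold every WRKY gene of Arabidopsis. For each gene the tables give 1 value for the copy inherited from A. thaliana (the T homoeolog) and 1 for the copy inherited from A. arenosa (the A homoeolog).

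WRKY proteins bind a short DNA element called the W box, which is common in the promoters of defence and senescence genes. They are sorted by their number of WRKY domains and by the type of zinc finger into groups I, IIa to IIe and III. Many are themselves induced by pathogens, salicylic acid or wounding, some are phosphorylated by the MAP kinases of immune signalling, and several bind the promoters of other WRKY genes, so that the family forms a web in which some members activate defence and others restrain it. In leaves the family is also known for its part in ageing.

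Rosette leaves were taken before bolting from plants of 6 to 7 weeks, grown with 16 h of light at 22 °C and 8 h of dark at 20 °C. The F1 cross TTTA joined A. thaliana with AlloF8, the resynthesized allotetraploid of A. thaliana and A. arenosa in its generation F8, and TATT joined AlloF8 with A. thaliana. AATA joined A. arenosa with AlloF8, and TAAA joined AlloF8 with A. arenosa. The letters of each name count its genomes, so TTTA and TATT form a class with T and A genomes at 3 to 1 (called T3A1), and AATA and TAAA a class with them at 1 to 3 (called T1A3). A. suecica, an allotetraploid of the same pair of species, and AlloF8 itself were measured too, so every plant in the study carried both genomes. Each F1 cross had 3 libraries, and A. suecica and AlloF8 had 2 each, which makes 16 libraries of which 12 are from F1 plants. Whether the replicates of a cross are separate plants or pools is not stated, so the p-values below measure the spread between these libraries, which may be technical.

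All values are RPKM, a read number corrected for the length of the transcript and for the size of the library, as deposited by the authors. The total of a gene is the sum of its homoeologs, and its T share is the T homoeolog in percent of that total. Depth is unknown, since the counts behind these values were not used here, and summed RPKM ran from 613044 to 781415 per library. No nonzero total was under 2 RPKM in any library, so a gene either had a total of at least 2 RPKM or had no value, and a missing value is read here as lying under that floor, not as absence. In bulk leaf tissue, fewer cells that express a gene and less RNA of it per cell cannot be told apart. Leaf markers were high in every library: 6 of 6 mesophyll genes (RBCS1A, RCA, GAPA1, LHCA1, LHCB1.3 and LHCB2.1) had values throughout, while none of 6 root genes and none of 6 flower genes had a value in any library.

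Of the 44 WRKY genes, 42 were listed with a total above 2 RPKM in at least 1 F1 library, 25 in all 12 F1 libraries and 17 in all 16 libraries. The 25 are 59.5% of the 42, against 70.8% of all genes listed in any F1 library. WRKY44 (AT2G37260), a regulator of trichomes and seed coat, and WRKY74 (AT5G28650) had no value in any library. WRKY45, known from phosphate uptake and leaf ageing, WRKY55, a group III gene linked to leaf ageing, and WRKY65 were listed in F1 plants only in libraries of replicate 2. WRKY45 stood at 3.29 RPKM in replicate 2 of TAAA, and at 6.47 RPKM in 1 AlloF8 library. WRKY65 stood at 8.24 RPKM in replicate 2 of TAAA, its only value. WRKY57, known from drought tolerance, was the reverse case, with 2.60 RPKM in replicate 1 of AATA and 2.08 RPKM in replicate 3 of TAAA and no value in replicate 2. The share of all genes listed in F1 plants only in replicate 2 was not counted. These cases are therefore not read as a trait of the family.

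The 25 genes listed in all F1 libraries had a median mean total of 21.6 RPKM, against 15.1 RPKM for the 12193 genes listed in all of them, and 16 of the 25 lay above that median. The highest mean totals over the 4 crosses were those of WRKY70 (121 RPKM), WRKY40 (96.3 RPKM), WRKY25 (74.7 RPKM), WRKY18 (61.7 RPKM), WRKY33 (58.2 RPKM) and WRKY15 (45.5 RPKM). These genes have well-known roles: WRKY70 (AT3G56400) promotes salicylate responses and delays ageing, WRKY18 (AT4G31800) and WRKY40 (AT1G80840) are partners that restrain defence, and WRKY33 (AT2G38470) is needed against necrotrophic fungi. Their order rests on libraries that lay far apart, as the values below show.

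**Figure D1:**
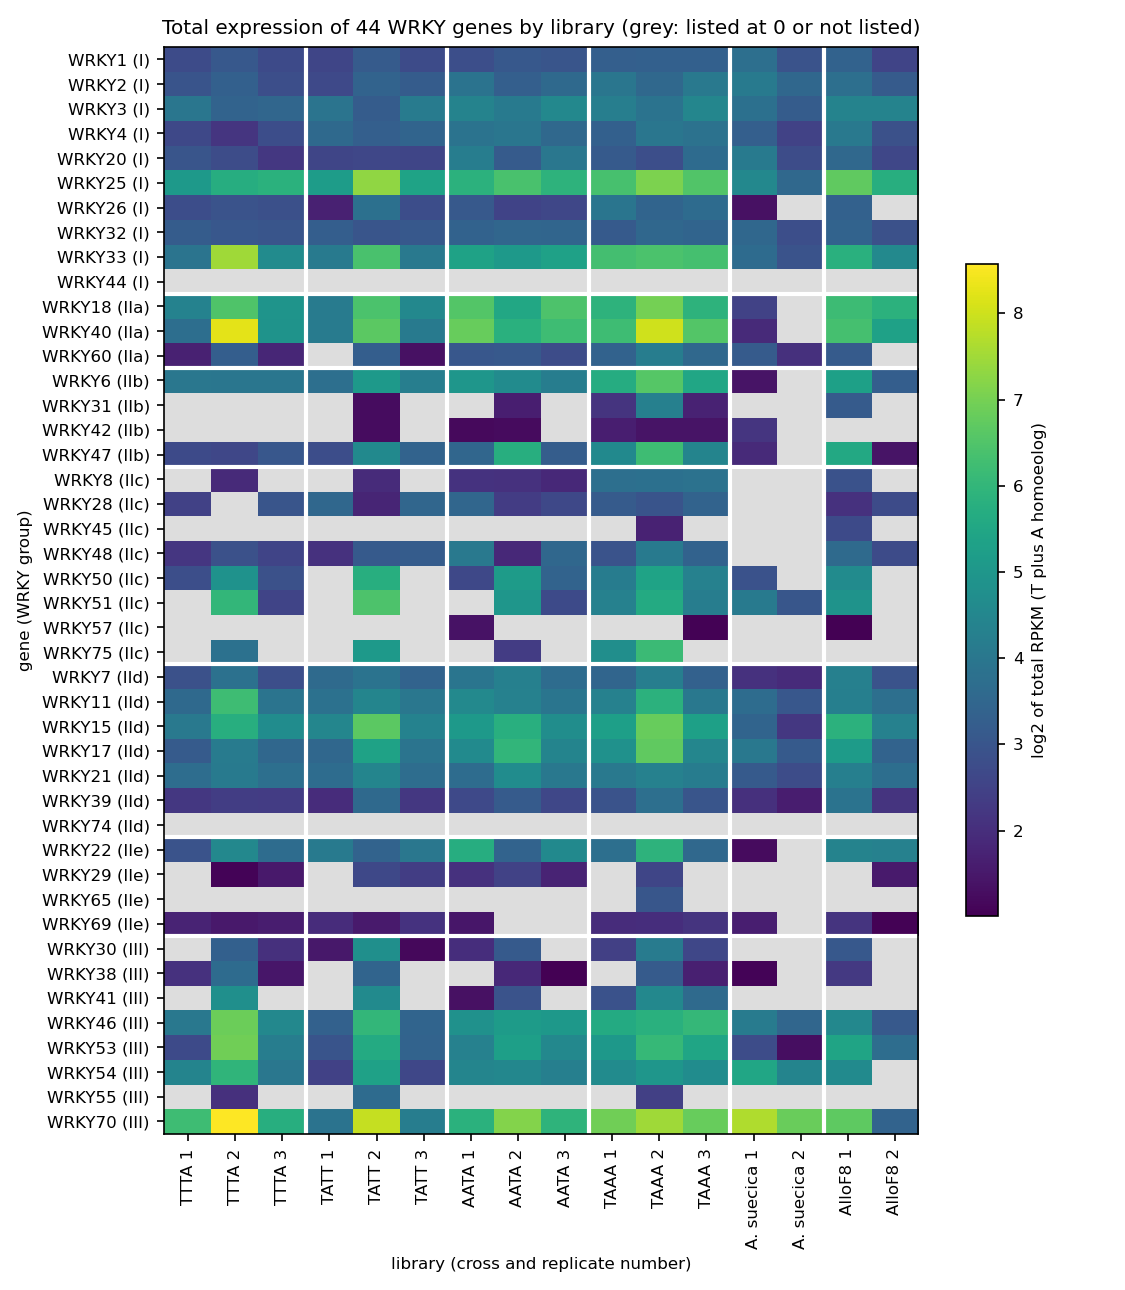
Total expression (log2 of RPKM, colour) of the 44 WRKY genes (rows, by group) in each of the 16 libraries (columns, by cross and replicate number); grey cells have no value. WRKY44 and WRKY74 are grey throughout, and the replicate 2 columns of TTTA, TATT and TAAA are brighter than their neighbours for many genes of groups IIa, IId and III.

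Replicate 2 of the F1 crosses stood apart from replicates 1 and 3. Summed over the family, the total was 1783 RPKM in replicate 2 of TTTA, against 384.5 and 464.0 RPKM in replicates 1 and 3. In TATT it was 1466 RPKM in replicate 2, against 323.8 and 372.2 RPKM. In TAAA it was 1896 RPKM in replicate 2, against 955.5 and 984.3 RPKM. AATA differed least, with 946.2 RPKM in replicate 2 against 804.7 and 687.7 RPKM in replicates 1 and 3. The number of listed WRKY genes was also highest in replicate 2 of every cross: 36, 39, 37 and 41 in TTTA and TATT and in AATA and TAAA, against 28 to 37 in the 8 libraries of replicates 1 and 3. Of all genes 83.1%, 83.2%, 84.5% and 83.7% were listed in these replicate 2 libraries, against 77.6% to 86.6% in the 8 others. That share was highest in replicate 2 in TTTA only.

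**Figure D2:**
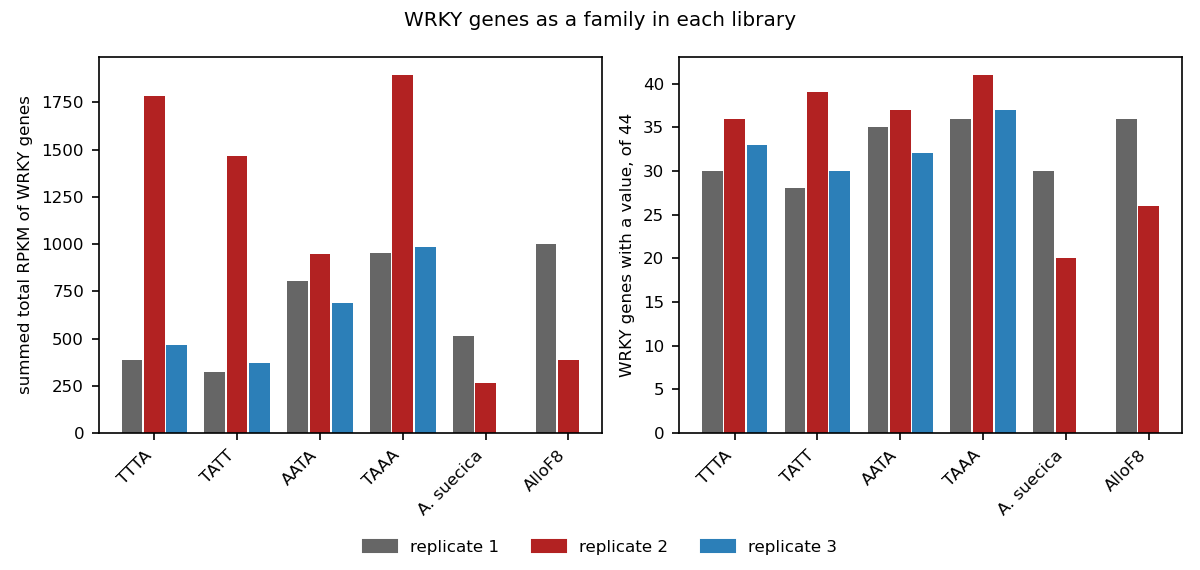
Left, summed total RPKM of the WRKY genes per library; right, how many of the 44 had a value; bars are single libraries, coloured by replicate number, for each cross or line. Replicate 2 is highest in all 4 F1 crosses in both panels, by the smallest margin in AATA, whereas in A. suecica and AlloF8 replicate 1 is higher.

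To set each gene against this spread, log2(RPKM + 0.5) of the 12 F1 libraries was fitted with limma, with a mean per cross and the replicate number as a block, and replicate 2 was compared with the mean of replicates 1 and 3. All differences below are on this log2 scale, which understates those of low genes. Of the 44 WRKY genes, 28 had enough values to be tested, 14 were listed too seldom and 2 were not listed. With Benjamini-Hochberg adjustment over all 13500 genes tested and a threshold of 0.05, 15 of the 28 were higher in replicate 2 and 2 were lower. Over all genes 18.2% were higher and 15.2% were lower. The median difference of the 28 was 0.76, against 0.03 for all genes. Without replicate 1 of every cross 3 WRKY genes were higher, and without replicate 3 of every cross 2 were, where 4.80% and 5.29% of all genes were higher, and none was lower in either. Without replicate 2 of TATT 9 were higher and none was lower, against 10.2% and 9.27% of all genes. Without the whole cross TATT 8 were higher, against 8.66% of all genes. The 2 lower genes, WRKY28 and WRKY3, became 1 call without any of 7 other libraries, namely replicates 1 and 3 of TTTA and of TATT, replicates 1 and 2 of AATA and replicate 3 of TAAA.

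All 5 tested genes of group III were higher in replicate 2. WRKY70 had 380, 238, 144 and 181 RPKM in replicate 2 of TTTA and TATT and of AATA and TAAA, and 14.8 to 121 RPKM (median 58.9) in the 8 libraries of replicates 1 and 3. The replicate 2 values lay above all 8 others, and the difference was 2.07 (SE 0.412, adjusted p = 0.0061 by limma). WRKY53 (AT4G23810), a promoter of leaf senescence, had 122, 49.8, 39 and 66.9 RPKM in replicate 2, against 6.53 to 43.5 RPKM (median 19.3) in replicates 1 and 3. Its replicate 2 value in AATA fell inside the range of the other libraries, although above both others of that cross, and the difference was 1.86 (SE 0.390, adjusted p = 0.00738). WRKY30 (AT5G24110), induced by reactive oxygen, was near the floor in replicates 1 and 3, with 2.26 to 6.18 RPKM and 2 libraries without a value, against 9.92, 27.2, 8.80 and 17.8 RPKM in replicate 2. It differed by 1.83 (SE 0.342, adjusted p = 0.00733), with missing values left out. WRKY46 and WRKY54, which act with WRKY70 in drought and brassinosteroid responses, were higher by 1.33 and 1.21.

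The other group III genes were not tested because they had too few values, and what they had lay mostly in replicate 2. WRKY41, known from flagellin responses, had 27.1, 24.5, 7.76 and 23.4 RPKM in replicate 2, against 2.55 to 12.4 RPKM in 3 of the 8 other libraries and no value in the rest. WRKY38, a repressor of basal defence, had 12.6, 10.9, 3.68 and 8.99 RPKM in replicate 2, against 2.01 to 4.20 RPKM in 4 of the 8 other libraries and no value in the rest. Its replicate 2 value in AATA fell inside that range. WRKY55 had 4.17, 12.6 and 5.46 RPKM in replicate 2 of TTTA, TATT and TAAA. No replicate 1 or 3 library listed WRKY55.

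All 6 tested genes of group IId, whose proteins can bind calmodulin, were higher in replicate 2 as well. WRKY15 (AT2G23320), known from oxidative and salt stress, had 54.1, 102, 54.6 and 111 RPKM in replicate 2 of TTTA and TATT and of AATA and TAAA, against 16.6 to 39.5 RPKM (median 26.2) in replicates 1 and 3. The ranges did not overlap, and the difference was 1.48 (SE 0.206, adjusted p = 0.00188). WRKY17 (AT2G24570), which with WRKY11 limits basal resistance, had 17.7, 41.6, 63.5 and 105 RPKM in replicate 2, against 9.06 to 28.5 RPKM (median 18.4) in replicates 1 and 3. WRKY17 was higher in replicate 2 of each cross, by 1.46 (SE 0.192, adjusted p = 0.00165), although its ranges overlapped. WRKY11, WRKY39, WRKY7 and WRKY21 were higher by 1.17, 0.68, 0.64 and 0.52.

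In group IIa, whose 3 proteins form complexes with each other, WRKY40 and WRKY60 were called and WRKY18 was not. WRKY40 had 309, 101, 56.3 and 258 RPKM in replicate 2 of TTTA and TATT and of AATA and TAAA, and 13.4 to 111 RPKM (median 52.0) in replicates 1 and 3. It was higher in replicate 2 of 3 crosses and lower in AATA, with an overall difference of 1.84 (SE 0.577, adjusted p = 0.036). WRKY60 (AT2G25000) differed by 0.93 and WRKY18 by 1.00, and the adjusted p of WRKY18 was 0.0824. WRKY18 showed the same split, with 46.3 RPKM in replicate 2 of AATA against 92.9 and 88.2 RPKM in its replicates 1 and 3.

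Groups I, IIb, IIc and IIe were less uniform. In group I, 9 genes were tested. WRKY25 (AT2G30250), a relative of WRKY33 in heat and pathogen responses, was higher by 0.85, and WRKY3 (AT2G03340), known from defence against necrotrophs, was lower, at -0.48. WRKY26, another gene of the heat response, differed by 0.22 (adjusted p = 0.597) and WRKY33 by 1.32 (adjusted p = 0.0626). In group IIb, WRKY47 was higher by 1.29 (SE 0.335, adjusted p = 0.0171), and WRKY6, a regulator of senescence and phosphate transport, differed by 0.52 (adjusted p = 0.0968). The replicate 2 value of WRKY47 was the highest of its cross except in TTTA, where 6.10 RPKM lay below 6.56 and 8.30 RPKM. In group IIc, WRKY28, an activator of salicylate synthesis, was lower, at -0.86 (SE 0.270, adjusted p = 0.0395), with no value in replicate 2 of TTTA and 3.45, 5.05 and 7.82 RPKM in replicate 2 of TATT, AATA and TAAA, against 5.55 to 11.5 RPKM in replicates 1 and 3. WRKY22, a target of the flagellin kinase cascade and the tested gene of group IIe, differed by 0.27 (adjusted p = 0.726).

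Of the 6 genes of group IIc that were too seldom listed for a test, WRKY50, WRKY51 and WRKY75 had high values in replicate 2. WRKY51, which with WRKY50 mediates repression of jasmonate signalling, had 64.5, 88.7, 31.6 and 49.5 RPKM in replicate 2 of TTTA and TATT and of AATA and TAAA, and 5.84 to 20.2 RPKM in 4 of the 8 other libraries. WRKY50 had 29.2, 54, 35.6 and 41.7 RPKM in replicate 2, against 6.24 to 20.2 RPKM in the other libraries that listed it. WRKY75, known from phosphate starvation and senescence, had 14.3, 34.2, 5.10 and 71.2 RPKM in replicate 2, and 26.6 RPKM in replicate 1 of TAAA alone among the others. WRKY29 of group IIe, which acts beside WRKY22, had 2.11 to 6.22 RPKM in replicate 2 and 2.90 to 5.21 RPKM in the other libraries that listed it, so its ranges overlapped. WRKY8 of group IIc did not stand apart in the crosses where every replicate listed it, with 4.20 RPKM in replicate 2 of AATA against 4.36 and 3.67 RPKM, and 13.8 RPKM in replicate 2 of TAAA against 13.7 and 14.4 RPKM. In TTTA and TATT only replicate 2 listed it, at 3.74 and 3.86 RPKM.

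For a pair of genes the replicate 2 difference itself differed between the dosage classes, each of which has only 2 replicate 2 libraries. The replicate 2 difference in T3A1 minus that in T1A3 was above 0 and past the threshold for 2 of the 28 tested WRKY genes, WRKY33 and WRKY46, against 0.799% of 13136 genes. None of the 28 was below 0 and past it, against 0.0761% of all genes. WRKY33 had 179 and 84.5 RPKM in replicate 2 of TTTA and TATT, against 15 to 25.1 RPKM in their replicates 1 and 3. In AATA and TAAA its replicate 2 values of 33.4 and 86.0 RPKM lay beside 40.2 to 41 RPKM and 79.0 to 81.1 RPKM. The replicate 2 difference of WRKY33 was thus 2.73 in T3A1 and -0.09 in T1A3, and their difference was 2.81 (SE 0.348, adjusted p = 0.0254). WRKY46 (AT2G46400) behaved alike, with 117 and 65.1 RPKM in replicate 2 of TTTA and TATT against 10.2 to 23.3 RPKM, and 35.4 and 55.5 RPKM in replicate 2 of AATA and TAAA against 28.5 to 65.8 RPKM. Its replicate 2 difference was 2.56 in T3A1 and 0.09 in T1A3, and these differed by 2.48 (SE 0.197, adjusted p = 0.00857).

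Leaving out libraries removed 1 or both of these calls. Without replicate 1 or replicate 3 of every cross no WRKY gene was called, and 0% of all genes were. WRKY33 missed the threshold without any of 9 libraries, namely replicates 1 and 3 of TTTA, replicate 3 of TATT and each library of AATA and TAAA, with class differences of 2.37 to 3.26 over the 12 libraries left out in turn. WRKY46 missed it without replicate 3 of TATT or of TAAA. Fits without replicate 2 of TTTA or of TATT keep only 1 replicate 2 library in T3A1. The median class difference of the WRKY genes in them was 0.77 and 0.37, against 0.09 and 0.02 for all genes.

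Other WRKY genes had class differences of like size that missed the threshold. The replicate 2 difference of WRKY40 was 3.21 in T3A1 and 0.47 in T1A3 (adjusted p = 0.181), that of WRKY70 was 3.18 and 0.96 (adjusted p = 0.0744), and that of WRKY53 was 2.89 and 0.83 (adjusted p = 0.0691). WRKY47 ran the other way, with 0.59 in T3A1 and 1.99 in T1A3 (adjusted p = 0.259). Of the 28 tested genes 14 had an unadjusted p under 0.05, against 14.9% of all genes, and the median class difference was 0.61, against 0.05 for all genes.

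**Figure D3:**
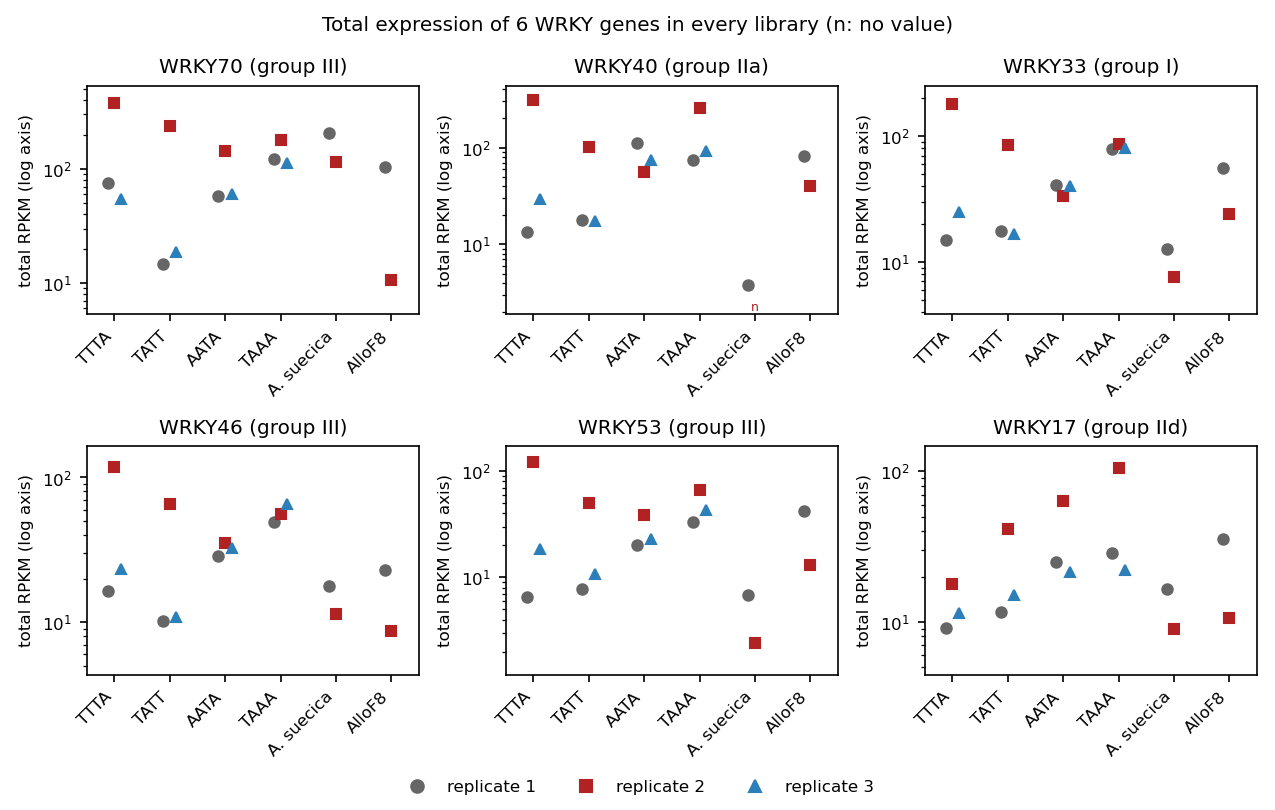
Total RPKM (log axes) of WRKY70, WRKY40, WRKY33, WRKY46, WRKY53 and WRKY17 in every library of each cross or line; marks are single libraries by replicate number, and n marks a library without a value. For WRKY33 and WRKY46 the replicate 2 squares stand far above the other marks in TTTA and TATT and close to them in AATA and TAAA, and for WRKY17 they are on top in all 4 F1 crosses.

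Genes that act before, beside or after the WRKY proteins moved in replicate 2 too. Of 12 genes for kinases and partner proteins of WRKY factors, 9 were higher in replicate 2 and none was lower, with a median of 0.88. Over all genes 18.2% were higher and 15.2% were lower. MPK3, a kinase that phosphorylates WRKY33, had 392, 254, 125 and 146 RPKM in replicate 2 of TTTA and TATT and of AATA and TAAA, against 50.2 to 181 RPKM in replicates 1 and 3. MPK3 was higher by 1.32 (adjusted p = 0.0359), and its class difference of 2.43 passed the threshold (adjusted p = 0.0205), as did that of PBS3, an enzyme of salicylate synthesis (1.92, adjusted p = 0.0351). The related kinase gene MPK6 differed by 0.31 (adjusted p = 0.119).

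All 10 tested genes of 11 in a list of salicylate signalling and WRKY targets were higher in replicate 2, with a median of 1.93. Over all genes 18.2% were higher. PR1, a standard marker of salicylate responses, had 3450, 4378, 4573 and 4443 RPKM in replicate 2, against 47.6 to 2959 RPKM in replicates 1 and 3. PR1 was higher by 3.19 (adjusted p = 0.00704), PAD3, the last enzyme of camalexin synthesis and a WRKY33 target, by 2.37 (adjusted p = 0.00445), and ICS1, the main enzyme of salicylate synthesis, by 1.78 (adjusted p = 0.00445). EDS1, PAD4 and NPR1, regulators of salicylate signalling, were higher by 1.77, 1.52 and 0.69.

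Markers of leaf state moved with replicate 2 beside these genes. All 6 mesophyll markers were lower, and their summed level was 13320 to 23890 RPKM in replicate 2 against 24120 to 42200 RPKM in replicates 1 and 3. Of 5 markers of senescent leaf 3 were tested and 2 were higher, SAG13 and NAP, while SAG12, the defining marker of late senescence, had no value in any library. The summed senescence markers overlapped, with 43.5 to 127 RPKM in replicate 2 against 8.35 to 121 RPKM. Of 6 touch and rapid stress genes 1 was higher, TCH3 (1.53), and their sum was 2084 and 1017 RPKM in replicate 2 of TTTA and TATT against 237 to 366 RPKM in their replicates 1 and 3. In AATA and TAAA that sum was 298.6 and 617.9 RPKM in replicate 2 against 432 to 599 RPKM. Of 3 guard cell genes, 2 were tested and FAMA was lower, with a summed level of 6.73 to 14.7 RPKM in replicate 2 against 12.1 to 22.8 RPKM. The part of leaf state, handling or cell types in the WRKY values was not tested.

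The next question was whether total expression differed with genome dosage. The family sum was 384.5, 1783 and 464.0 RPKM in TTTA and 323.8, 1466 and 372.2 RPKM in TATT, against 804.7, 946.2 and 687.7 RPKM in AATA and 955.5, 1896 and 984.3 RPKM in TAAA. Outside replicate 2, every T3A1 sum was below every T1A3 sum, and with replicate 2 the classes overlapped. By limma over the 12 libraries, 12 of the 28 tested WRKY genes were lower in T3A1 and none was higher, while 21.4% of all genes were lower and 16.9% were higher. The fitted difference was below 0 for all 28, with a median of -0.59 against -0.05 for all genes. The p-values of these class differences measure the spread between libraries within crosses, not that between the crosses of a class.

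The genes lower in T3A1 included the 2 tested genes of group IIb, 6 of 9 of group I, 3 of 6 of group IId and 1 of 3 of group IIa. WRKY47 (AT4G01720) had 6.56, 6.10 and 8.30 RPKM in TTTA and 6.92, 24.2 and 10.7 RPKM in TATT, against 11.3, 53.5 and 9.47 RPKM in AATA and 24.3, 73.8 and 21.6 RPKM in TAAA. Its difference was -1.38 (SE 0.316, adjusted p = 0.00901). WRKY17 had 9.06, 17.7 and 11.5 RPKM in TTTA and 11.6, 41.6 and 15.2 RPKM in TATT, against 24.8, 63.5 and 21.5 RPKM in AATA and 28.5, 105 and 22.2 RPKM in TAAA. In each replicate number both T3A1 libraries of WRKY17 lay below both T1A3 libraries, and the difference was -1.20 (SE 0.181, adjusted p = 0.00139).

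WRKY6 (AT1G62300) had 16.0, 15.6 and 15.7 RPKM in TTTA and 13.7, 34.2 and 19.1 RPKM in TATT, against 31.7, 25.3 and 18.4 RPKM in AATA and 51.9, 94.5 and 44.4 RPKM in TAAA. The classes overlapped through TATT and AATA, and the difference was -1.06 (SE 0.206, adjusted p = 0.00431). WRKY60 had 3.26, 9.56 and 3.55 RPKM in TTTA and, with 1 library without a value, 9.69 and 2.55 RPKM in TATT, against 8.39, 8.61 and 6.80 RPKM in AATA and 10.5, 18.4 and 11.8 RPKM in TAAA. It was lower, at -1.03 (SE 0.223, adjusted p = 0.00841). WRKY20, WRKY4, WRKY2 and WRKY3 of group I followed at -0.82, -0.73, -0.63 and -0.55, then WRKY39 and WRKY7 of group IId at -0.52 and -0.40, and WRKY32 and WRKY1 of group I at -0.30 and -0.28.

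**Figure D4:**
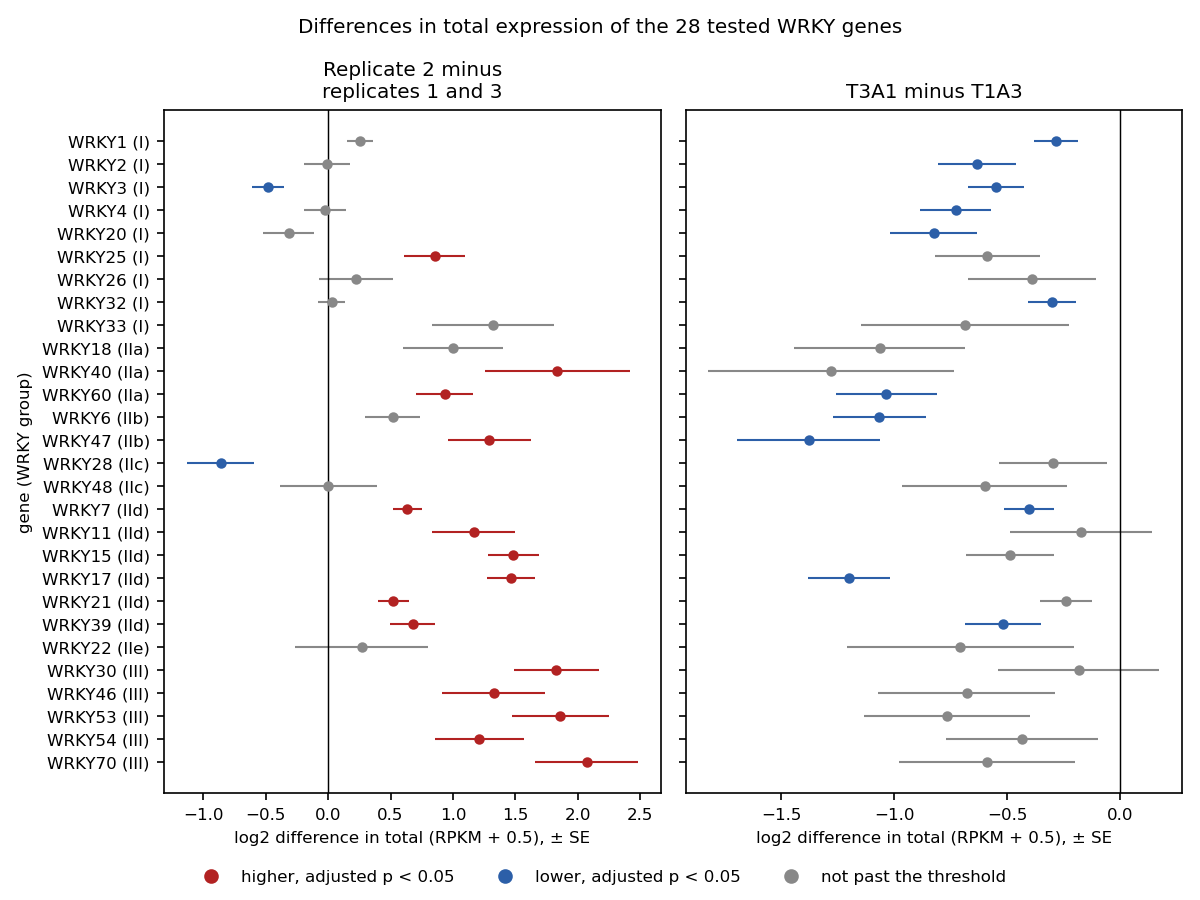
Fitted log2 differences in total expression (points) with their SE (bars) for the 28 tested WRKY genes, replicate 2 minus replicates 1 and 3 on the left and T3A1 minus T1A3 on the right; colour marks calls at an adjusted p under 0.05. On the left 15 genes are higher and 2 are lower; on the right all 28 points lie below 0, and 12 are called.

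The class difference took different sizes within the replicate numbers, which are compared here over the 25 WRKY genes and 12193 genes in all with a value in each F1 library. Within replicate 1 the value was lower in T3A1 for 25 of the 25 (median -1.07), and for 50.7% of all genes. Within replicate 3 it was lower for 25 of the 25 (median -0.60), and for 61.45% of all genes. Within replicate 2 it was lower for 15 of the 25 (median -0.07), and for 50.4% of all genes. When replicate 2 of every cross was left out, limma called 22 of 26 tested WRKY genes lower in T3A1 and none higher, against 27.6% of all genes lower. In that fit WRKY40 was lower, at -2.19 (adjusted p = 0.000209), WRKY18 at -1.69 (adjusted p = 4.6e-05), WRKY33 at -1.62 (adjusted p = 9.7e-05) and WRKY46 at -1.50 (adjusted p = 3.8e-05), and WRKY53, WRKY70 and WRKY54 at -1.45, -1.33 and -1.09. Of these 7 genes of groups I, IIa and III, none was called over all 12 libraries.

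Against the 12 calls over all libraries, 3 of 26 tested WRKY genes were called lower without replicate 1 of every cross, where 7.32% of all genes were, and 3 of 25 without replicate 3, where 5.87% were. Without the replicate block 4 of 28 were called lower, a share near the 12.1% of all genes. When the means of the 4 crosses were compared, 2 against 2, none was called, and 11 of 28 had an unadjusted p under 0.05, against 26.3% of all genes. Without replicate 1 of AATA 7 of 27 were called lower, against 16.7% of all genes. Leaving out a cross gave 4 calls without TAAA, 5 without TATT and 6 each without TTTA and AATA, while 5.70%, 7.49%, 16.1% and 11.4% of all genes were called lower.

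Of the 10 tested genes of salicylate signalling and WRKY targets, 6 were lower in T3A1, 4 were not called and none was higher, with a median of -1.21. Over all genes 21.4% were lower and 16.9% were higher. PAD3 had 15.4, 49.6 and 16.0 RPKM in TTTA and 147.9 and 5.61 RPKM in replicates 2 and 3 of TATT, against 44.6, 229.6 and 40.2 RPKM in AATA and 246.3, 785.5 and 318.4 RPKM in TAAA, and was lower, at -2.86 (adjusted p = 0.0014). ICS1 was lower, at -1.41 (adjusted p = 0.00728). Among the 12 kinases and partners 4 were lower, MKK2, MEKK1, MPK4 and MPK6, with a median of -0.44 over the list, and none of the 6 touch genes was called. The summed mesophyll markers in replicates 1 and 3 were 34900 to 42200 RPKM in T3A1 against 24120 to 30310 RPKM in T1A3. With replicate 2 the sums overlapped, at 15900 to 42200 RPKM in T3A1 and 13320 to 30310 RPKM in T1A3. By limma over the 12 libraries 1 of the 6 mesophyll markers was higher in T3A1, 1 was lower and 4 were not called. Their part in the WRKY values was not tested.

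Behind the totals, both homoeologs of the tested WRKY genes followed the number of their genome copies in direction. The T homoeolog was higher in T3A1 for 24 of 28 genes and lower for none, while 96.3% of all genes were higher and 0.246% were lower. The A homoeolog was lower in T3A1 for 28 of 28 genes, while 96.9% of all genes were lower and 0.238% were higher. The sizes were unequal, with a median difference of 1.06 in T against 1.41 for all genes, and of -2.08 in A against -1.44 for all genes. Totals, T and A come from the same reads, so these are not separate evidence.

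WRKY17 shows both sides of this pattern. Its T homoeolog averaged 9.92 ± 3.09 RPKM in T3A1 and 3.78 ± 1.00 RPKM in T1A3 (SD, n = 2 crosses each), and its A homoeolog averaged 7.86 ± 3.98 RPKM in T3A1 and 40.4 ± 9.75 RPKM in T1A3. The T homoeolog was higher by 1.31 and the A homoeolog differed by -2.24 (adjusted p = 8.91e-05 and 1.54e-06 by limma). The 4 genes whose T homoeolog did not pass the threshold were WRKY53 (0.50, adjusted p = 0.168), WRKY40 (0.56, adjusted p = 0.302), WRKY46 (0.72, adjusted p = 0.0791) and WRKY33 (0.81, adjusted p = 0.0958), all with libraries far apart. The T over A ratio was higher in T3A1 for all 28 tested genes, against 99.7% of all genes with a higher and 0.015% with a lower ratio, with differences of 2.67 (WRKY26) to 3.77 (WRKY70), a median of 3.08 for the WRKY genes and 2.88 for all genes.

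The T share of the WRKY genes lay slightly below that of all genes in each cross. Its median over WRKY genes was 72.7% in TTTA (33 genes) and 74.3% in TATT (30 genes), where all genes had 75.2% in both. It was 21.9% in AATA (35 genes) and 20.9% in TAAA (37 genes), where all genes had 23.5% and 23.4%. In A. suecica it was 48.1% (20 genes) and in AlloF8 45.4% (25 genes), where all genes had 49.6% and 49.4%. No difference between the family and all genes was tested here.

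Averaged over the 4 crosses, in which the genome copies of the classes balance, the log2 ratio of T over A was above 0 for 5 and below 0 for 15 of the 28 tested WRKY genes by limma. Over all genes 35.1% were above and 43% below. The median was -0.24 for the WRKY genes and -0.06 for all genes. The strongest A bias was that of WRKY17 (-1.36, SE 0.0948), followed by WRKY18 (-1.12), WRKY25 (-0.84) and WRKY54 (-0.83). The strongest T bias was that of WRKY39 (0.62, SE 0.0536), followed by WRKY53 (0.53), WRKY32 (0.43) and WRKY1 (0.39). The adjusted p of each of these 8 ratios was at most 7.9e-05.

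These biases kept their side in both classes. WRKY17 had a T share of 57.6% ± 3.54 in T3A1 and 9.24% ± 0.681 in T1A3, and WRKY18 had 57.1% ± 0.470 and 13.4% ± 0.290 (SD, n = 2 crosses each), all below the medians of all genes. WRKY39 had 85.4% ± 0.843 in T3A1 and 35.9% ± 1.61 in T1A3, and WRKY53 had 82.2% ± 0.0881 and 33.9% ± 0.0395, all above those medians. WRKY70, near the middle in T3A1 with 74.1% ± 0.568, stood at 16.6% ± 0.905 in T1A3. WRKY33 and WRKY46 had no bias past the threshold (0.04, adjusted p = 0.464, and -0.04, adjusted p = 0.673).

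**Figure D5:**
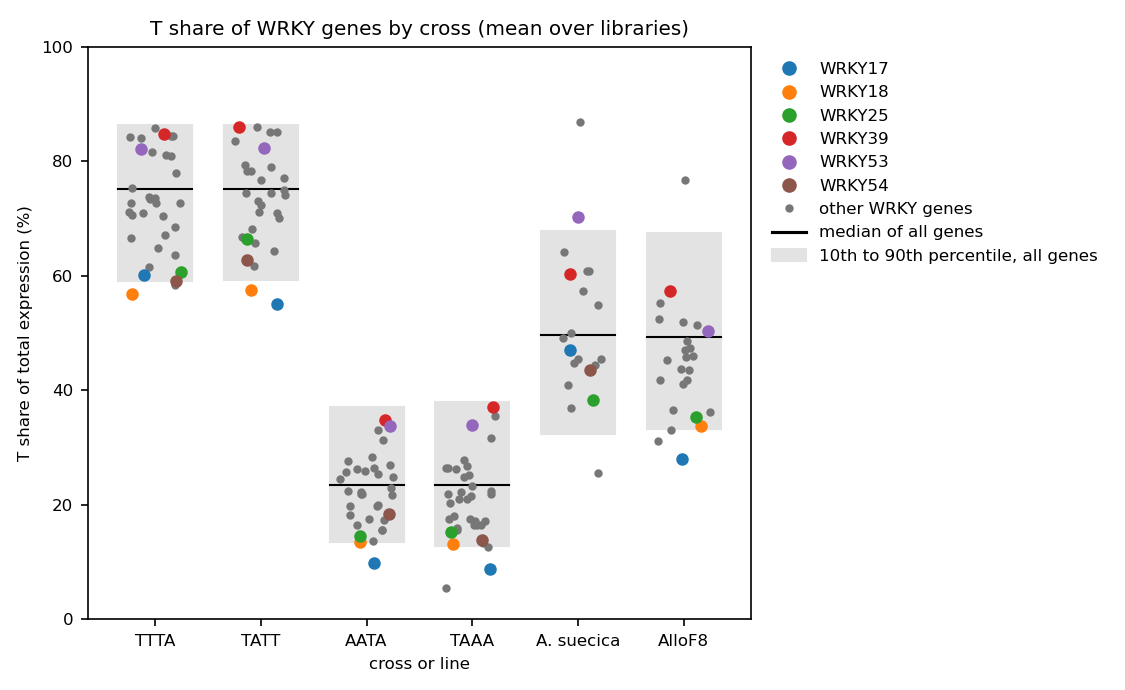
T share of total expression (percent, mean over the libraries of a cross or line) of each WRKY gene with at least 2 values in that cross or line; coloured points are 6 named genes, black lines the median of all genes and grey boxes their 10th to 90th percentiles. WRKY17 and WRKY18 lie near or below the lower edge in all 4 F1 crosses, and WRKY39 and WRKY53 lie near the upper edge.

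The homoeolog ratio was compared between replicate 2 and replicates 1 and 3 as well. Replicate 2 differed from replicates 1 and 3 in the log2 ratio of T over A for 1 of the 28 tested WRKY genes, WRKY60, which was higher (0.75, SE 0.147, adjusted p = 0.0253). Over all genes 1.86% were higher and 1.7% were lower. The T share of WRKY60 was 33.5% and 33.8% in replicate 2 of AATA and TAAA, against 15.2% to 23.4% in their replicates 1 and 3. In TTTA its replicate 2 share of 84.4% lay between 80.4% and 87.8%, and in TATT it was 86.2% against 84.0% in replicate 3. Its A homoeolog had only 0.41 to 1.49 RPKM in T3A1, where the added 0.5 RPKM weighs on the ratio. The call of WRKY60 was lost without replicate 1 of TTTA or AATA and without replicate 2 of AATA or TAAA, and the gene could not be tested without replicate 2 or 3 of TATT. For WRKY70 the ratio differed by 0.17 (adjusted p = 0.455), and for WRKY40 by -0.36 (adjusted p = 0.119).

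Cross order was compared as AlloF8 named first (TATT and TAAA) against AlloF8 named second (TTTA and AATA). Limma called none of the 28 tested WRKY genes and 0% of all 13500 genes. At an unadjusted p under 0.05 there were 5 of the 28 WRKY genes and 21.4% of all genes (2893). The largest differences were those of WRKY47 and WRKY6 (both 0.83, adjusted p = 0.179 and 0.0897).

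A. suecica was set against AlloF8 with 2 libraries each, and here 17 WRKY genes were tested, 25 were listed too seldom and 2 had no value. The family sum was 515.5 and 265.3 RPKM in A. suecica, against 1001 and 385.8 RPKM in AlloF8, and 30 and 20 WRKY genes were listed in A. suecica against 36 and 26 in AlloF8. Of the 17, 1 was higher and 4 were lower in A. suecica, against 1.22% and 2.92% of 12644 genes. WRKY53 had 6.81 and 2.42 RPKM in A. suecica, against 42.5 and 13.1 RPKM in AlloF8, a difference of -2.39 (SE 0.588, adjusted p = 0.00295). WRKY15 had 10.9 and 4.74 RPKM in A. suecica, against 58.3 and 20.1 RPKM in AlloF8, a difference of -2.17 (SE 0.595, adjusted p = 0.0108). For neither gene did the groups overlap.

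WRKY25 had 23.2 and 11.8 RPKM in A. suecica, against 105 and 53.9 RPKM in AlloF8, and was lower, at -2.15 (adjusted p = 0.0131). WRKY33 had 12.5 and 7.61 RPKM in A. suecica, against 55.6 and 23.9 RPKM in AlloF8, and was lower, at -1.85 (adjusted p = 0.0462). WRKY70 went the other way, with 205 and 115 RPKM in A. suecica against 103 and 10.6 RPKM in AlloF8, a difference of 2.18 (SE 0.625, adjusted p = 0.0169). WRKY54, its close relative, had 45 and 21.3 RPKM in A. suecica, against 24.9 RPKM and no value in AlloF8, and was not tested. WRKY40 had 3.79 RPKM and no value in A. suecica, against 81.1 and 40.5 RPKM in AlloF8, and WRKY18 had 5.68 RPKM and no value, against 73.0 and 58.5 RPKM.

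These calls rest on few and uneven libraries. When the libraries were rescaled to a common median, none of the 17 was called, with WRKY53 at -2.18 (adjusted p = 0.156) and WRKY70 at 2.41 (adjusted p = 0.294). The call of WRKY70 was lost when any of 3 libraries was left out, both of A. suecica and replicate 2 of AlloF8, and without the last its difference was 0.57. The 4 lower calls were 0 without replicate 1 of AlloF8 and 2 without its replicate 2. The AlloF8 libraries lay far apart, with summed mesophyll markers of 9352 and 38200 RPKM, against 24030 and 21080 RPKM in A. suecica. The 4 tested touch and rapid stress genes were all lower in A. suecica, with a median of -3.67, and the sum of all 6 was 35.1 and 17.5 RPKM in A. suecica against 449.9 and 415.9 RPKM in AlloF8. Their part in the WRKY values was not tested. PR1, by contrast, had 2053 and 283 RPKM in A. suecica, against 2685 and 56.0 RPKM in AlloF8, which overlapped.

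The T over A ratio differed between A. suecica and AlloF8 for 2 of the 17 tested WRKY genes, both higher in A. suecica. Over all genes 10% were higher and 9.5% were lower, so the share of higher WRKY genes was near that of all genes. WRKY21 had a T share of 60.8% ± 3.94 in A. suecica and 41% ± 1.48 in AlloF8 (SD, n = 2 libraries each), and its log2 ratio differed by 1.05 (adjusted p = 0.0176). WRKY46 had 64.1% ± 6.97 in A. suecica and 45.4% ± 6.08 in AlloF8, and its log2 ratio differed by 1.04 (adjusted p = 0.047). WRKY60 had T shares of 84.8% and 88.9% in A. suecica, against 65.5% in the AlloF8 library that listed it, and was not tested. Neither call held when one or the other A. suecica library was left out. Over the fits without 1 library of a line, the median difference of the tested WRKY genes was 0.25 to 0.42. For all genes it was -0.001 to 0.039 in these fits.

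Some of these values carry limits of the annotation. In the TAIR 10.1 annotation 9 of the 44 genes overlap a gene on the opposite strand, among them WRKY33, WRKY40 and WRKY53, and whether the counting used strand is not given in the sources used here. Reads of those genes and of their antisense partners cannot be told apart on this basis. How reads were assigned to homoeologs is not given either, so a bias in T share cannot be told apart from unequal assignment of reads.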

How the data were processed

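Messenger RNA of rosette leaves was sequenced on an Illumina Genome Analyzer from poly(A) RNA, per the labels' protocols. The authors deposited 1 table per sample with the RPKM of the T and the A homoeolog of each transcript in every replicate, per the file headers. The build was TAIR 9, per the submitters' processing notes, and the aligner, counting, filters and homoeolog assignment were not given in the sources used here. Gene symbols were checked against the TAIR 10.1 annotation, in which all 44 codes matched, and it was also used to find overlapping genes; none of its coordinates or sequences are given.

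For each of the 17885 genes the transcript of highest mean over 16 libraries was used (the 44 genes have 54 transcript IDs), and values listed at 0 were treated as missing. No replicate pair held identical values. Log2(RPKM + 0.5) was fitted with limma 3.58.1 in R 4.3.3 (trend, two-sided, Benjamini-Hochberg over all genes, threshold 0.05) where a gene's mean reached 1 RPKM (in each homoeolog where both were used) and every cross had at least 2 values. A sample with a missing value was dropped from that gene's fit. The 12 F1 libraries had a mean per cross and the replicate number as a block. Deviations from cross means correlated at 0.147 to 0.690 (median 0.473) in all 18 same-number pairs, which is why the block was kept. In the 36 different-number pairs they correlated at -0.639 to 0.526 (median -0.351), so the ranges overlapped. The highest of these joined replicate 3 of AATA with replicate 1 of TATT. Deviations within a cross sum to 0, so different-number pairs are pushed down where same-number pairs lie above 0. A. suecica and AlloF8 were fitted apart, 2 against 2 libraries. There were 11 comparisons, and scripts were tested on simulated data.

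Alternatives were another pseudocount, other minimum levels, listed 0 as 0 RPKM, the first-numbered transcript, rescaled libraries, fits without the block or on cross means, and leaving out libraries, replicates or crosses. Genes named with values are the called ones (at most 8 in each direction), the highest and least listed, those of extreme T share, and a list by role. The members, gene lists and tests were chosen with earlier results of these data known. PR1 and the other listed genes were picked for their known function.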

Additional observations from a re-analysis of the deposited data

Results flagged for a closer look

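For 2 WRKY genes the difference of replicate 2 from replicates 1 and 3 was itself different between the dosage classes, by a test of that difference in limma (adjusted over 13136 genes). For WRKY33 the replicate 2 difference in T3A1 exceeded that in T1A3 by 2.81 on the log2 scale (adjusted p = 0.0254), with 2.73 in T3A1 and -0.09 in T1A3. For WRKY46 it exceeded that in T1A3 by 2.48 (adjusted p = 0.00857), with 2.56 in T3A1 and 0.09 in T1A3. Both replicate 2 libraries of T3A1 lay above all replicate 1 and 3 libraries of that class for both genes. The summed touch and rapid stress genes were also high, at 2084 and 1017 RPKM in replicate 2 of TTTA and TATT. In replicates 1 and 3 of these crosses their sum was 237 to 366 RPKM. None of the 6 touch genes had a class difference past the threshold, with a median of 2.73. The part of the touch genes in the WRKY values was not tested.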

How the results depend on the processing

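Among called WRKY genes no difference changed its sign under any alternative run. Counts below are of WRKY genes called higher or lower. For replicate 2, 15 higher and 2 lower became 3 and 0 without replicate 1 of every cross, 2 and 0 without replicate 3 of every cross, and 8 and 0 without TATT; the 2 lower became 0 without AATA and 1 without TAAA. Single libraries left out gave 9 to 16 higher and 0 to 2 lower. For total expression by dosage, 12 lower became 3, 22 and 3 without replicates 1, 2 and 3 of every cross, 23 without replicate 2 with a listed 0 taken as 0 RPKM (an alternative chosen after seeing the data), and 6 and 5 without TTTA and TATT and 6 and 4 without AATA and TAAA. It was 4 with no replicate block, 0 on the means of the 4 crosses, and 7 to 17 without single libraries. With libraries rescaled to a common median it was 8 of 28, where 16.8% of all genes were lower and 22.0% were higher. The median difference in that fit was -0.51 for the WRKY genes and 0.04 for all genes.

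The T homoeolog gave 14 higher at a minimum of 5 RPKM and 15 without replicate 3 of every cross, against 24, and 1 lower with a listed 0 as 0 RPKM. At that minimum the ratio by dosage gave 17 and the T bias 1; fewer genes pass it. The replicate 2 ratio gave 0 higher at that minimum, with a listed 0 as 0 RPKM, without replicate 1 or 3 of every cross and without TATT, AATA or TAAA, and 1 lower without replicate 3 of every cross and without TTTA; single libraries gave 0 to 1 each way. The replicate 2 difference by class gave 0 without replicate 1 or 3 of every cross, and 0 to 5 higher and 0 to 1 lower without single libraries. Cross order gave 1 lower without replicate 2 of every cross, 1 higher without TTTA and 2 higher without TATT.

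For A. suecica against AlloF8, 1 higher and 4 lower became 0 and 1 with a listed 0 as 0 RPKM, 0 and 0 after rescaling, 0 and 4 with a replicate block, 0 and 2 with all 16 libraries in the fit, and 0 higher in that fit without replicate 2 of AlloF8 (chosen after seeing the data). Single libraries gave 0 to 1 higher and 0 to 4 lower. The ratio gave 4 higher with a listed 0 as 0 RPKM, 5 with all 16 libraries and 0 to 6 without single libraries, against 2. Fits without 1 library of a line assume that the lone library varies like the others. Without the block no other count moved by over 1.5 times among the dosage, bias and cross order comparisons; the replicate 2 comparisons are made between its levels, so no fit without it was run for them. The cause of these shifts was not tested. Read depth is unknown, and nothing under 2 RPKM can be followed.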
